A study of Mus musculus with 3 samples.

Results

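The genes described here are 10 genes of the FGF-ERK feedback circuit, Fgf4, Fgfr1, Spry2, Spry4, Dusp6, Dusp4, Etv4, Etv5, Spred1 and Spred2. They were taken by symbol from the 32285 genes listed in each library, and each symbol belonged to 1 Ensembl identifier. The cells were E14 mouse embryonic stem cells (129/Ola background), grown on gelatin in medium with fetal bovine serum and leukaemia inhibitory factor (LIF). From 24 h after seeding they received 10 uM tubercidin, an adenosine analogue, for 3 h or 6 h, while the control cells were given the solvent, DMSO, over 6 h. The 3 h treatment therefore had no control of its own length. RNA was counted in single cells with 10x Genomics 3' chemistry, in which each unique molecular identifier (UMI) counts 1 captured molecule. Each condition was 1 library, with no second culture, clone or line named in the labels, so no test was possible and no p-value is given. All intervals are exact 95% intervals of counting error and do not cover the spread between cultures.

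In mouse embryonic stem cells FGF4 is secreted by the cells themselves and binds FGF receptors, of which FGFR1 is a main one. The receptor signals through the adaptors FRS2 and GRB2, through RAS and through the kinases RAF, MEK and ERK, and this route moves cells away from the naive state, while LIF holds them in it. Active ERK switches on genes that act back on the route. Sprouty and SPRED proteins restrain signalling at the level of RAS and RAF, DUSP6 and DUSP4 remove the activating phosphates from ERK and related kinases, and ETV4 and ETV5 are DNA-binding proteins of the ETS family that act downstream of FGF signals.

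Relative to the total of each library, the ligand gene and most inhibitor genes of the circuit were lower after tubercidin, while the ETS factor genes were higher. After 3 h Fgf4 was 3.75-fold, Spry2 2.95-fold and Spred2 2.49-fold below the control, and Etv4 was 1.30-fold above it. After 6 h Spry2 and Spred2 were nearer to the control, whereas Spry4 was 6.63-fold and Dusp6 4.50-fold below it. Counted as UMIs per cell, all 10 genes, the ETS factors included, were lower after both times.

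The control, 3 h and 6 h libraries gave 2031, 2365 and 2926 cells, with 104892739, 29892000 and 24681924 UMIs. A median cell of these libraries had 48452, 11877 and 8004.5 UMIs, so the treated cells were shallower. The share of mitochondrial UMIs was 2.87 to 3.43% in the 3 libraries, and each pair of libraries shared 1 cell barcode. The stem cell label was checked against its markers: 8 of 8 were above 1 CPM (UMIs of the gene per 1000000 UMIs of the library's cells) in every library, with a summed level of 3785 to 5178 CPM. Summed markers of primed epiblast reached 57.3 to 87.4 CPM, of primitive endoderm 6.72 to 10.9 CPM, of trophoblast 9.13 to 13.6 CPM, of fibroblasts 0.963 to 2.11 CPM, and of 2-cell-like cells at most 0.891 CPM. Of the 2-cell-like markers, Zscan4c and Zscan4f had 0 UMIs in each library, while Zscan4d had 1, 0 and 7, Usp17lc 0, 0 and 6 and Tcstv3 0, 0 and 9 UMIs under DMSO, after 3 h and after 6 h. Markers at 0 in the other lists were the primed marker Fgf5 under DMSO, the primitive endoderm marker Sox17 after 6 h, and the fibroblast markers Lum (under DMSO and after 6 h), Col3a1 (after 3 h) and Col1a2 (after 6 h).

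The sequences below show short elements of these genes that DNA- and RNA-binding regulators are known to read, with 1 promoter for each of 3 patterns of level described further on. Fgf4 carries in its 3' untranslated region a composite element known as its stem cell enhancer, which SOX2 and OCT4 bind together. In GENCODE M21 it lies at chr7:144864392-144864414 on the plus strand (GRCm38, the assembly also called mm10), in the last exon. The capitals mark the SOX core TTTGTT and the POU core ATGCTAAT.

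Fgf4 enhancer: ctcTTTGTTtggATGCTAATggg

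Searched on the transcript strand with a gap of up to 5 bases between the cores, this pair was found in the 3' untranslated regions of 2 of 21899 genes. Fgf4 is among them by construction, since the letters searched are those of its own element. Sox2, whose product binds the SOX core, stood at 205 CPM under DMSO, 80.6 CPM after 3 h and 81.1 CPM after 6 h, and Pou5f1, which encodes OCT4, at 137, 159 and 213 CPM. The counts do not show whether either protein was on the element.

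The second set of sites is the AU-rich core TATTTAT, a short element of 3' untranslated regions that decay factors are known to bind. It was found on the transcript strand of 5 of the 10 genes, against 28.0% of 7679 expressed genes. It occurred at least 2 times in Spry2, Spry4 and Spred1, against 9.68% of the expressed genes. The median 3' untranslated region was 1493 bases long for the 10 genes and 978 bases for the expressed genes, so the 10 genes also had more sequence in which to find it. Spry4 held 4 of these cores, Spred1 held 3 and Spry2 held 2, and Fgf4 and Etv5 held 1 each. The sites of Spry2, Fgf4 and Etv5 are shown with the core in capitals and 11 bases on either side.

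Spry2 site 1: agtgtaaagaaTATTTATttgaagtttta

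Spry2 site 2: aaaaaaaagaaTATTTATtttaagaggca

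Fgf4 site: ggacgcccaatTATTTATaattttatgta

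Etv5 site: tttcataagcaTATTTATagctttctaat

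Dusp6, Dusp4, Etv4, Spred2 and Fgfr1 had no TATTTAT. Of the genes with the core, Fgf4, Spry2, Spry4 and Spred1 were below the control in CPM after 3 h and 6 h, and Etv5 was above it. Of those without it, Dusp6, Dusp4 and Spred2 were below the control at both times and Etv4 was above it. Fgfr1, also without it, was below the control after 3 h and above it after 6 h. Whether the core bears on these levels was not tested.

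RefSeq promoters were matched for 6 of the 10 genes. The 250 bases before the start site of Dusp6 (chr10:99262981-99263230, plus strand), Spry2 (chr14:105896820-105897069, minus strand) and Etv5 (chr16:22439571-22439820, minus strand, the first of 2 starts) are given from RefSeq on GRCm38.p6. Capitals mark the ETS core CGGAA on either strand, where it reads CGGAA or TTCCG. This short core was chosen after a longer one, CCGGAA, had given no match.

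Dusp6 promoter: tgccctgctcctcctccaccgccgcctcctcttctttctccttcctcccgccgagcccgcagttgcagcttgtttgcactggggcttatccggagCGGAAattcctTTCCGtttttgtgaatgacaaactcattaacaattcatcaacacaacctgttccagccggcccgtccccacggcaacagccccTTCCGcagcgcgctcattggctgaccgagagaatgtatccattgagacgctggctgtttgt

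Spry2 promoter: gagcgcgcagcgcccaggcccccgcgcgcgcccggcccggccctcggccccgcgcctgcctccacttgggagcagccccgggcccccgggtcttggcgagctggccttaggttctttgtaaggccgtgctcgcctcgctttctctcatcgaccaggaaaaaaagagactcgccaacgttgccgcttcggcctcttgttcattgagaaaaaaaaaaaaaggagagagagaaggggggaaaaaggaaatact

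Etv5 promoter: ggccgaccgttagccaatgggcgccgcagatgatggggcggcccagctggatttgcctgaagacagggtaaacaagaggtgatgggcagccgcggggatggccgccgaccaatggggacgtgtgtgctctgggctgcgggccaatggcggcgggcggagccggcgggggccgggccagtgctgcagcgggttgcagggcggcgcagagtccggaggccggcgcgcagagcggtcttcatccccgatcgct

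The Dusp6 window held 3 ETS cores. That of Spred2 held 2, that of Spred1 held 1, and those of Fgf4, Spry2 and Etv5 held none. Of 32851 promoter windows of this length, 25.2% held at least 1 core and 2.12% at least 3. The windows of the 6 genes had 56 to 71.2% G and C, against a median of 52.4% over all windows. Shares over all windows are thus not from windows of like composition. None of the 6 genes' windows held CCGGAA, the AP-1 site TGANTCA, the cyclic AMP element TGACGTCA, the TATA box TATAAA (on the gene's strand only) or a CArG box, which occurred in 12.0%, 6.75%, 1.55%, 7.59% and 1.47% of all windows. A match describes letters only and does not show a bound factor.

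Fgf4 (ENSMUSG00000050917, chr7:144847367-144865243, plus strand) encodes the ligand. It stood at 85.9 CPM under DMSO (9009 UMIs), at 22.9 CPM after 3 h (684 UMIs) and at 35.1 CPM after 6 h (866 UMIs). The 3 counting intervals, 84.1 to 87.7, 21.2 to 24.7 and 32.8 to 37.5 CPM, did not overlap. Both treated libraries were thus below the control, with the lowest level after 3 h. The level was 3.75-fold lower than the control after 3 h (log2 ratio -1.91, interval -2.02 to -1.80) and 2.45-fold lower after 6 h (-1.29, interval -1.39 to -1.19), and 1.53-fold higher after 6 h than after 3 h. Of the 7884 genes whose mean over the libraries reached 10 CPM, 0.152% had a log2 ratio of CPM + 1 below that of Fgf4 after 3 h (-1.86).

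Fgfr1 (ENSMUSG00000031565, chr8:25513654-25575718, plus strand) encodes the receptor. Its level was 33.7 CPM under DMSO, 30.5 CPM after 3 h and 42.6 CPM after 6 h, from 3530, 911 and 1051 UMIs. The 6 h library was the highest, and the other 2 libraries lay close together, with intervals of 32.6 to 34.8 and 28.5 to 32.5 CPM. The ratio to the control was 1.10-fold lower after 3 h (log2 ratio -0.14, interval -0.25 to -0.04), which turned to 0.05 and 0.09 with TMM and median-of-ratios factors, and 1.27-fold higher after 6 h (0.34, interval 0.24 to 0.44). Gm16159, a gene on the opposite strand that overlaps Fgfr1, stood at 0.439, 0.602 and 3.04 CPM. Whether the counting used strand is not given in the sources used here, so counts of genes that overlap on opposite strands are uncertain.

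**Figure D1:**
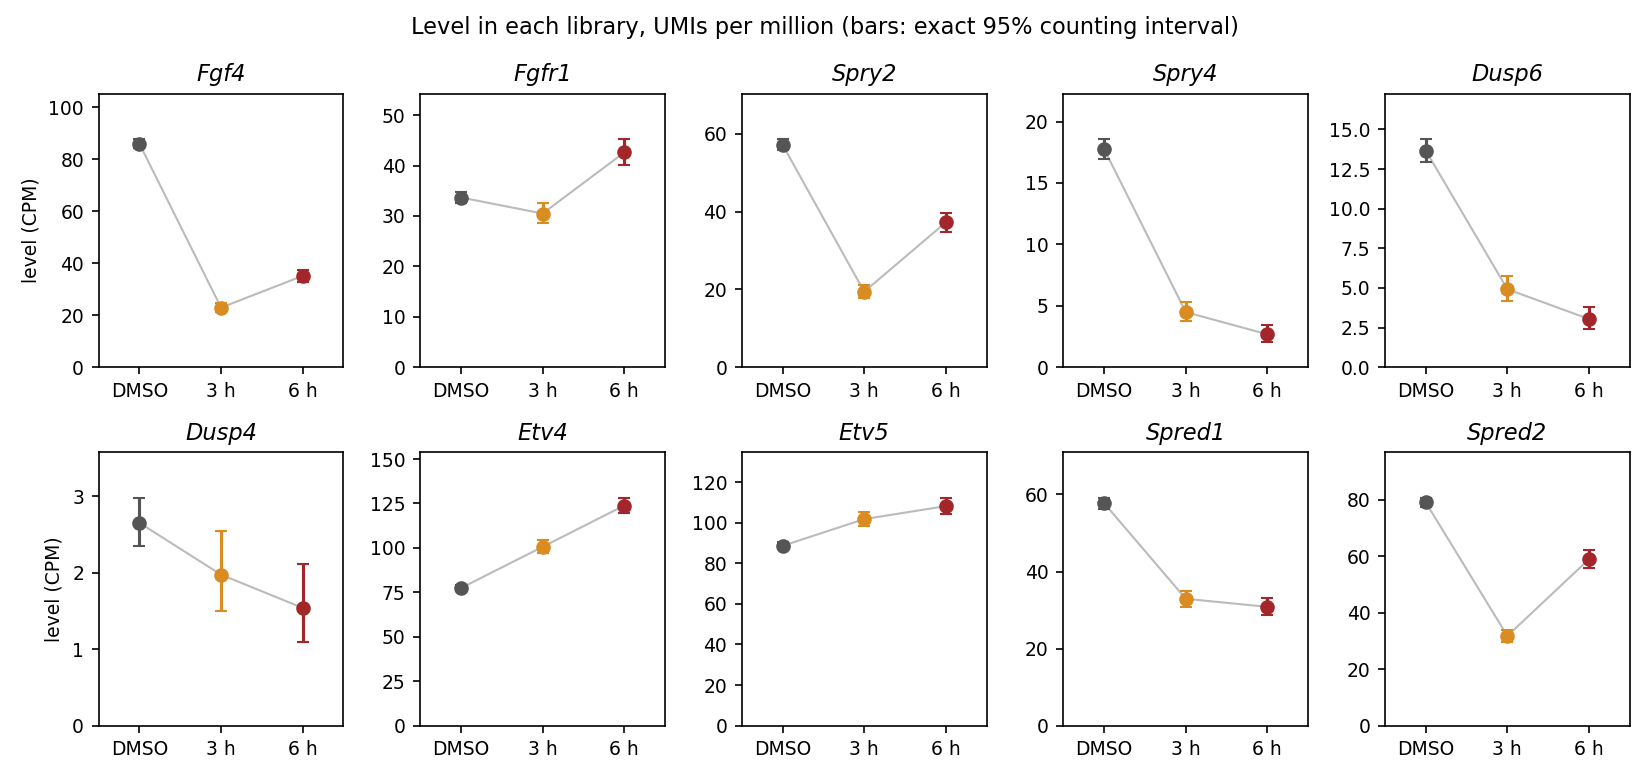
Level of each of the 10 genes (vertical axis, CPM, from 0) in the DMSO, 3 h and 6 h libraries (horizontal axis), with exact 95% Poisson counting intervals as bars and grey lines that only join the points. Fgf4, Spry2 and Spred2 were lowest after 3 h, Spry4 and Dusp6 were lowest after 6 h, and Etv4 and Etv5 were above the control in both treated libraries in CPM, though below it as UMIs per cell.

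The Sprouty genes encode inhibitors that ERK signalling itself induces. Spry2 (ENSMUSG00000022114, chr14:105891947-105896819, minus strand) stood at 57.2 CPM under DMSO, 19.4 CPM after 3 h and 37.2 CPM after 6 h, from 5998, 580 and 919 UMIs. Its level was lowest after 3 h and lay between the other libraries after 6 h, with no overlap of the 3 intervals. It was 2.95-fold below the control after 3 h (log2 ratio -1.56, interval -1.68 to -1.44) and 1.54-fold below after 6 h (-0.62, interval -0.72 to -0.52). From 3 h to 6 h the level was 1.92-fold higher (0.94, interval 0.79 to 1.09), the largest of the 10 ratios between the treated libraries.

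Spry4 (ENSMUSG00000024427, chr18:38586247-38601415, minus strand) followed another order. It stood at 17.7 CPM under DMSO, 4.48 CPM after 3 h and 2.67 CPM after 6 h, from 1861, 134 and 66 UMIs. The lowest level was that after 6 h, and the 3 intervals (16.9 to 18.6, 3.76 to 5.31 and 2.07 to 3.40 CPM) did not overlap. Spry4 was 3.96-fold lower than the control after 3 h (log2 ratio -1.98, interval -2.25 to -1.73) and 6.63-fold lower after 6 h (-2.73, interval -3.11 to -2.38), the lowest of the 10 ratios at each time when taken without a pseudocount. Between the treated libraries Spry2 was higher and Spry4 lower after 6 h. Spry4 overlaps 2 genes on the opposite strand.

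The dual-specificity phosphatases were next. Dusp6 (ENSMUSG00000019960, chr10:99263231-99267489, plus strand), a cytoplasmic phosphatase with a strong preference for ERK, stood at 13.7 CPM under DMSO, 4.92 CPM after 3 h and 3.04 CPM after 6 h, from 1433, 147 and 75 UMIs. As with Spry4, each level was below the one before, with intervals of 13.0 to 14.4, 4.15 to 5.78 and 2.39 to 3.81 CPM. The ratio to the control was 2.78-fold lower after 3 h (log2 ratio -1.47, interval -1.73 to -1.23) and 4.50-fold lower after 6 h (-2.17, interval -2.52 to -1.83). Dusp4 (ENSMUSG00000031530, chr8:34807297-34819894, plus strand), a nuclear phosphatase, was at 2.65, 1.97 and 1.54 CPM, from 278, 59 and 38 UMIs. Its 3 h and 6 h levels had overlapping intervals (1.50 to 2.55 and 1.09 to 2.11 CPM). A log2 ratio of -0.43 after 3 h had an interval from -0.86 to -0.02, and after 6 h the ratio was -0.78 (interval -1.31 to -0.29). A difference of Dusp4 between 3 h and 6 h was not detectable at this depth (log2 ratio -0.36, interval -0.99 to 0.25).

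In CPM the ETS factors stood on the other side of the control. Etv4 (ENSMUSG00000017724, chr11:101769742-101785371, minus strand) was at 77.4 CPM under DMSO, 101 CPM after 3 h and 124 CPM after 6 h, from 8123, 3007 and 3056 UMIs. Each level was above the one before, without overlap of the intervals, by 1.30-fold over the control after 3 h (log2 ratio 0.38, interval 0.32 to 0.44) and 1.60-fold after 6 h (0.68, interval 0.62 to 0.74). Etv5 (ENSMUSG00000013089, chr16:22381309-22439719, minus strand) was at 88.6, 102 and 108 CPM, from 9295, 3042 and 2670 UMIs. Both treated libraries were above the control, by 1.15-fold after 3 h (log2 ratio 0.20, interval 0.14 to 0.26) and 1.22-fold after 6 h (0.29, interval 0.23 to 0.35), and they lay close to each other. These ratios compare shares of a library's UMIs. Counted as UMIs per cell, both genes were below the control: Etv4 was 3.15-fold lower after 3 h and 3.83-fold lower after 6 h, and Etv5 3.56-fold and 5.02-fold.

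The SPRED genes encode membrane-bound relatives of Sprouty that hold back RAS, together with neurofibromin. Spred1 (ENSMUSG00000027351, chr2:117121374-117182279, plus strand) stood at 57.7 CPM under DMSO, 32.9 CPM after 3 h and 30.8 CPM after 6 h, from 6053, 984 and 761 UMIs. Both treated libraries were low and their intervals, 30.9 to 35.0 and 28.7 to 33.1 CPM, overlapped. Spred1 was 1.75-fold lower than the control after 3 h (log2 ratio -0.81, interval -0.91 to -0.71) and 1.87-fold lower after 6 h (-0.90, interval -1.01 to -0.80). Spred2 (ENSMUSG00000045671, chr11:19924375-20024026, plus strand) stood at 79.1 CPM under DMSO, 31.8 CPM after 3 h and 59.0 CPM after 6 h, from 8298, 951 and 1456 UMIs. Like Spry2 it was lowest after 3 h and between the other libraries after 6 h. It was 2.49-fold lower than the control after 3 h (log2 ratio -1.31, interval -1.41 to -1.22) and 1.34-fold lower after 6 h (-0.42, interval -0.50 to -0.34), and 1.85-fold higher after 6 h than after 3 h.

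**Figure D2:**
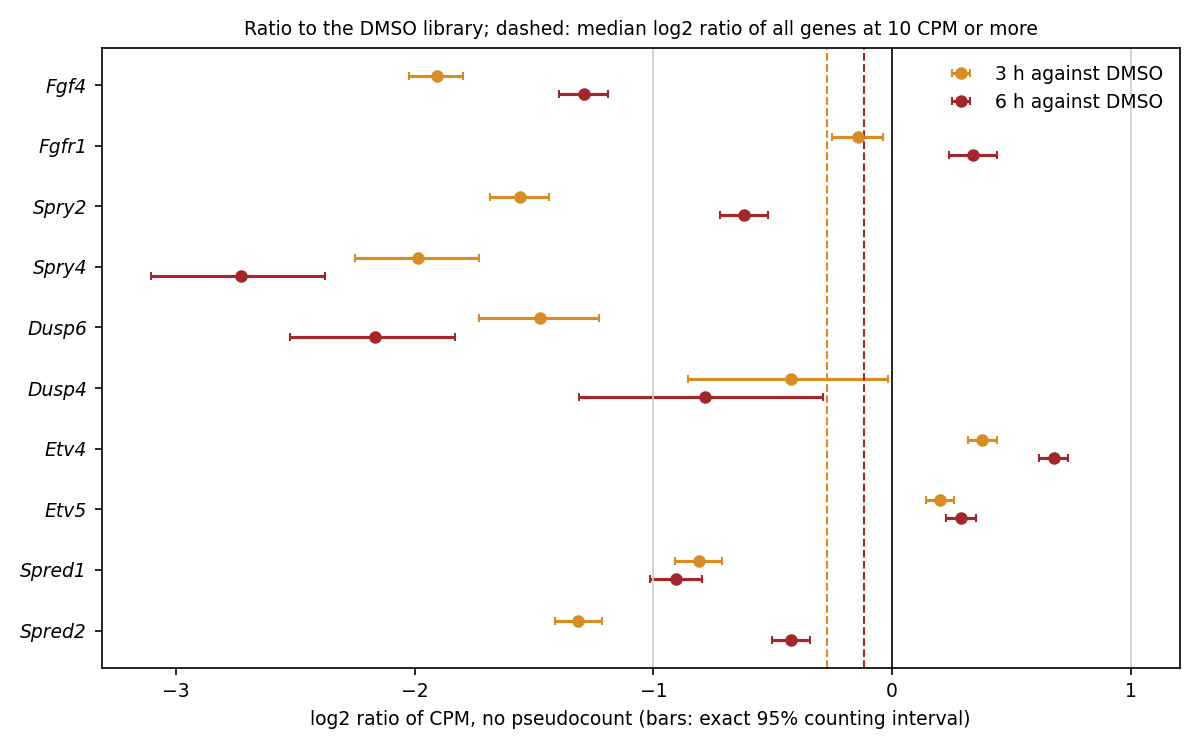
Log2 ratio of each gene's level in the 3 h library (orange) and the 6 h library (red) to the DMSO library (horizontal axis, CPM without pseudocount), 1 gene per line, with exact 95% counting intervals as bars. The dashed lines mark the median log2 ratio of 7884 genes, -0.27 after 3 h and -0.12 after 6 h, and the grey lines mark 2-fold. Unlike the points, these medians are of CPM + 1. On that scale Dusp4 after 3 h was at -0.30, and its plotted interval (-0.86 to -0.02) reached across the line. Of the 10 genes, 7 lay to the left of the dashed line after 3 h and 7 after 6 h, while Fgfr1, Etv4 and Etv5 lay to the right at both times.

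Beside all genes, the 10 were counted by a rule of size, a log2 ratio of CPM + 1 of at least 1 or at most -1, in place of a test. Spry4, Dusp6 and Dusp4 had means of 8.30, 7.21 and 2.05 CPM and did not pass the filter of 10 CPM, which the other 7 genes passed in each library on its own. At 3 h, 3 of the 7 were at least 2-fold lower than the control, Fgf4, Spry2 and Spred2, against 5.54% of all 7884 genes, and 0 of 7 were at least 2-fold higher, against 0.888%. With no filter, Spry4 and Dusp6 joined them, which made 5 of 10, against 3.35% of 25496 genes. By this rule a gene below 1 CPM in the control cannot reach -1, so the shares of all genes with no filter are held low. At 6 h, 1 of 7 was at least 2-fold lower, Fgf4, against 4.41% of all genes, and 0 were higher, against 2.33%, while with no filter Spry4 and Dusp6 made it 3 of 10, against 2.77%. Between 6 h and 3 h, 0 of 7 were past 2-fold in either direction, against 1.64% higher and 0.165% lower among all genes. The median log2 ratio of the 10 genes was -1.04 after 3 h, -0.56 after 6 h and 0.19 after 6 h against 3 h, and that of all genes -0.27, -0.12 and 0.14. Since both treated libraries were set against the same control, their ratios are not independent of each other.

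The split between higher and lower genes depends on the scaling. With TMM factors 126 of all genes were at least 2-fold higher and 198 lower after 3 h, against 70 and 437 in CPM. At 6 h against 3 h the split was 55 and 45 with TMM or median-of-ratios factors, against 129 and 13 in CPM. TMM moved the median gene by 0.19 after 3 h, -0.03 after 6 h and -0.21 between the treated libraries. Among the 10 genes the sign of the ratio to the control changed under these factors for Fgfr1 after 3 h, and Etv5 turned from 0.09 to -0.13 (TMM) and -0.14 (median-of-ratios) after 6 h against 3 h. Counted as UMIs per cell, where the 3 h and 6 h cells held fewer UMIs of nearly every gene, all 10 genes were lower in both treated libraries, by 3.15-fold for Etv4 to 16.2-fold for Spry4 after 3 h and by 3.83-fold for Etv4 to 40.6-fold for Spry4 after 6 h. The order of the genes was the same as in CPM, since a factor for a library moves all genes together. RNA content and sequencing depth cannot be told apart as the source of the lower UMI numbers per cell.

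The ratio of paralogues within a library is not touched by scaling. Spry4 made up 23.7% of the UMIs of Spry2 and Spry4 under DMSO (interval 22.7 to 24.6%), 18.8% after 3 h (16.0 to 21.8%) and 6.70% after 6 h (5.22 to 8.45%). After 6 h the other 93.3% of these UMIs were Spry2. Dusp6 made up 83.8% of the UMIs of Dusp4 and Dusp6 under DMSO (81.9 to 85.5%), 71.4% after 3 h (64.7 to 77.4%) and 66.4% after 6 h (56.9 to 75.0%), with the treated libraries below the control and overlapping each other. Spred2 made up 57.8% of the UMIs of Spred1 and Spred2 under DMSO (57.0 to 58.6%), 49.1% after 3 h (46.9 to 51.4%) and 65.7% after 6 h (63.7 to 67.7%). This share was below the control after 3 h and above it after 6 h. Etv5 made up 53.4% of the UMIs of Etv4 and Etv5 under DMSO (52.6 to 54.1%), 50.3% after 3 h (49.0 to 51.6%) and 46.6% after 6 h (45.3 to 47.9%), the smallest shift of the 4 pairs in percentage points. With equal weight for each cell, the 3 h share of Etv5 was 52.1%.

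**Figure D3:**
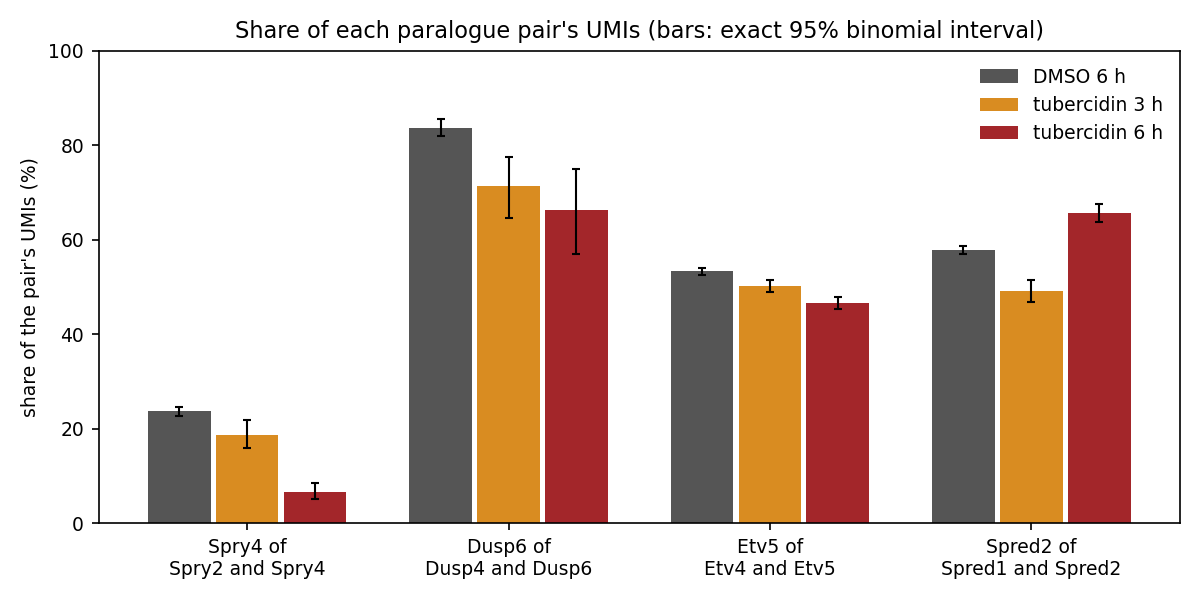
Share of a pair's UMIs that belonged to the named gene (vertical axis, percent, from 0) for 4 pairs of related genes (horizontal axis) in the DMSO (grey), 3 h (orange) and 6 h (red) libraries, with exact 95% binomial intervals as bars. The share of Spry4 went from 23.7% in the control to 6.70% after 6 h, and that of Spred2 was lower after 3 h (49.1%) and higher after 6 h (65.7%) than under DMSO (57.8%).

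The same UMIs were also described by how many cells held one. At equal depth this share follows largely from the mean level, so it is no separate support for the differences in CPM. Since depth per cell differed, each cell was thinned to 4000 UMIs, which left out 0, 122 and 284 cells under DMSO, after 3 h and after 6 h. Fgf4 was then found in 27.2% of control cells (25.3 to 29.2%), 8.20% of cells after 3 h (7.1 to 9.42%) and 12.3% after 6 h (11.1 to 13.6%). Unthinned, the shares were 92.8%, 23.0% and 23.7%, a wider gap than at equal depth. The order of the 3 libraries after thinning was that of the CPM levels, which come from the same UMIs.

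Spry2 was found in 19.8%, 7.13% and 12.8% of thinned cells under DMSO, after 3 h and after 6 h, and Spred2 in 27.0%, 11.8% and 20.8%. Spry4 went from 6.30% (5.28 to 7.45%) to 1.34% (0.904 to 1.90%) and 1.02% (0.675 to 1.48%), and Dusp6 from 5.56% (4.61 to 6.65%) to 1.83% (1.31 to 2.47%) and 0.946% (0.613 to 1.39%). For both genes the intervals of the treated libraries overlapped, and both lay below that of the control. Spred1 was found in 21.02%, 12.0% and 10.9% of cells. Etv4 was found in 25.2% of control cells (23.3 to 27.1%), 32.2% after 3 h (30.3 to 34.2%) and 38.3% after 6 h (36.5 to 40.2%), a share that was larger in each treated library. Etv5 was found in 29.05%, 32.6% and 34.0% of cells, with intervals that overlapped between neighbouring libraries. Fgfr1 was found in 11.7%, 10.9% and 14.1% of cells, and Dusp4 in 1.03%, 0.847% and 0.454%.

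At least 1 of the 10 genes was found in 85.6% of thinned control cells, 72.6% after 3 h and 80.7% after 6 h. A thinned cell held on average 2.06, 1.40 and 1.76 UMIs of the 10 genes together. Both measures were lowest after 3 h, and most cells of each library held some transcript of the circuit at this depth.

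**Figure D4:**
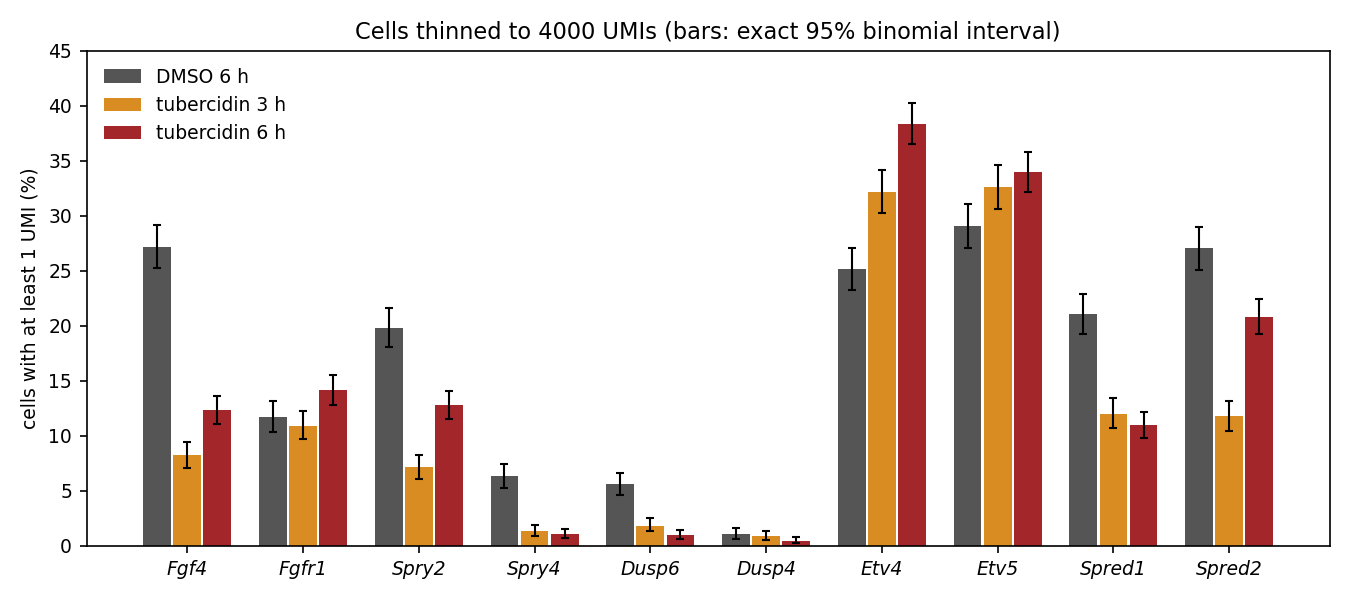
Share of cells with at least 1 UMI of each gene (vertical axis, percent, from 0) after every cell was thinned to 4000 UMIs, in the DMSO (grey), 3 h (orange) and 6 h (red) libraries, with exact 95% binomial intervals as bars. Fgf4 was found in 27.2%, 8.20% and 12.3% of cells, whereas Etv4 was found in 25.2%, 32.2% and 38.3%.

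Free RNA was read from barcodes of low rank by UMIs, down to rank 15000 and all below the cell minimums, whose medians were 343, 210 and 138 UMIs. These barcodes held 2.51 UMIs of Fgf4 per 100 barcodes under DMSO, 0.20 after 3 h and 0.34 after 6 h, and of Etv4 2.11, 1.67 and 1.43. In CPM, free Fgf4 was at 72.3, 9.36 and 24.1, free Spry2 at 66.3, 8.89 and 31.1, and free Etv4 at 60.8, 78.1 and 101. For these 3 genes the libraries came in the same order in the free pool as in the cells. For others they did not: free Etv5 was at 86.7, 61.7 and 94.8 CPM, lowest after 3 h, where the level in the cells was above that under DMSO. Free Spry4 was at 27.7 CPM under DMSO from 96 UMIs, and the treated libraries had 2 UMIs each. No cell type in these libraries was known to lack the genes, so the share of cells that would hold a UMI from free RNA alone was not measured.

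Within each library the cells were split at the median UMI number, to see whether deep or shallow cells carried the levels. Fgf4 stood at 77.3 CPM in the lower and 91.0 CPM in the upper control cells, at 23.0 and 22.8 CPM after 3 h, and at 33.2 and 36.0 CPM after 6 h. Spry4 stood at 16.8 and 18.3 CPM under DMSO, 3.94 and 4.75 CPM after 3 h, and 1.91 and 3.06 CPM after 6 h. For both genes every treated set of cells was below both control sets. Etv4 stood at 77.9 and 77.2 CPM under DMSO, 95.7 and 103 CPM after 3 h, and 127 and 122 CPM after 6 h, so that every treated set was above both control sets. The median difference of the 10 genes, lower minus upper cells, was -0.04 under DMSO, 0.07 after 3 h and -0.10 after 6 h on the log2 scale.

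From cell to cell, little joint variation of the genes could be seen at this depth. Over the 45 pairs of genes, Pearson's r of log counts in cells thinned to 4000 UMIs had a median of 0.0066 under DMSO (2031 cells), 0.0027 after 3 h (2243 cells) and 0.000033 after 6 h (2642 cells). The largest r in any library was 0.071, for Spry4 and Spred1 after 3 h, and 0 of 45 pairs exceeded 0.1. In control cells thinned to 10000 UMIs the median was 0.019 and the largest r 0.076, for Dusp6 and Etv4. The cells of a library share its depth and its free RNA, and correlations this small in sparse counts are no finding. Sparse counts also keep r small where genes do vary together, so joint variation could have been missed.

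The genes most like the mean of the 10 genes over the 2031 control cells were Jarid2 (r = 0.185), Ptprg (0.160), Arl15 (0.160), mt-Nd1 (0.157) and Jmjd1c (0.156), out of 6159 candidates with a median r of 0.016. These values are small, and the cells share their library, its depth and its free RNA. Their log2 ratios to the control were -0.53, -0.60, -1.14, -0.13 and -1.51 after 3 h and -0.20, -0.20, -0.85, -0.12 and -1.17 after 6 h. All 5 were below the control in both libraries, as was the median of all genes, at -0.27 and -0.12. Arl15 and Jmjd1c were at least 2-fold lower after 3 h, against 5.54% of all genes, and Jmjd1c after 6 h, against 4.41%.

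The rest of the route was read from 6 lists with 74 genes, of which 36 passed the filter of 10 CPM. At 3 h, 1 of the 36 was at least 2-fold higher, against 0.888% of all genes, and 2 were at least 2-fold lower, against 5.54%. At 6 h, 1 was higher, against 2.33%, and 1 lower, against 4.41%. Between 6 h and 3 h, 0 of 36 were past 2-fold in either direction, against 1.64% and 0.165%. The median log2 ratio of the 36 was -0.38, -0.09 and 0.13 in the 3 comparisons, near the -0.27, -0.12 and 0.14 of all genes, and each count past 2-fold was 2 genes or fewer. Counted as UMIs per cell, 0 of the 36 were at least 2-fold higher at either time, and 35 and 36 were at least 2-fold lower after 3 h and after 6 h, against 98.7% and 99.2% of all genes.

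Among the other ligands, 1 of 12 passed the filter. Fgf17 stood at 22.6 CPM under DMSO, 68.8 CPM after 3 h and 38.4 CPM after 6 h, with log2 ratios of CPM + 1 of 1.56 and 0.74, the reverse of the order of Fgf4. Of 9 receptors and co-receptors, 4 passed. Gpc4, a heparan sulfate proteoglycan of the cell surface, stood at 17.9 CPM under DMSO, 8.26 CPM after 3 h and 16.3 CPM after 6 h, with log2 ratios of -1.03 and -0.13. Its 3 h level alone was below the 10 CPM of the filter. Gpc3 was the lowest of the 4 after 6 h, with a log2 ratio of -0.25. Fgfr2, a receptor related to Fgfr1, stood at 94.8, 117 and 193 CPM, with log2 ratios of 0.30 and 1.02. Its gene model spans 2960900 bp and overlaps 36 genes on its own strand and 33 on the other, so its count is uncertain.

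Of the 14 adaptors and RAS genes, 12 passed and 0 were past 2-fold at either time. Their lowest log2 ratio after 3 h was -0.65 for Nf1, which encodes the RAS inhibitor neurofibromin, and their highest 0.33 for the adaptor Shc1. At 6 h the highest was Hras (0.39). Of the 12 kinases and scaffolds, 11 passed and 0 were past 2-fold. They ranged from -0.92 for the ERK substrate kinase Rps6ka3 to 0.35 for Pebp1, a RAF inhibitor, after 3 h, and from -0.59 for the MEK gene Map2k1 to 0.58 for Rps6ka1 after 6 h.

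Of the 15 other feedback genes, 5 passed and 0 were past 2-fold. The lowest was the phosphatase gene Dusp16 at both times (-0.86 and -0.99), and the highest Lgals3, which encodes galectin-3 (0.51 and 0.55). Dusp16 stood at 16.2 CPM under DMSO, 8.46 CPM after 3 h and 7.66 CPM after 6 h. It thus passed the filter of 10 CPM only through the control, which favours a low ratio. Of the 12 other ERK-responsive transcripts, 3 passed. Ier2, an immediate-early gene, stood at 177 CPM under DMSO, 70.8 CPM after 3 h and 36.6 CPM after 6 h, with log2 ratios of -1.31 and -2.24, the same order of libraries as Spry4 and Dusp6. Ccnd1, the gene of cyclin D1, stood at 52.9, 88.0 and 77.7 CPM, with log2 ratios of 0.72 and 0.55. The ERK-responsive list thus held genes on both sides of the control, as did the 10 genes themselves.

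Between the treated libraries the extremes of the lists were Gpc3 (0.13) and Gpc4 (0.90) among receptors and co-receptors, Nf1 (0.60, the highest) among adaptors and RAS genes, and Mapk3 (-0.28) and Braf (0.41) among kinases, as log2 ratios of CPM + 1. Among other feedback genes they were Dusp16 (-0.13) and Il17rd (0.69), a membrane inhibitor of FGF signalling, and among ERK-responsive transcripts Ier2 (-0.93) and Elk3 (0.09). Gpc4, Nf1 and Il17rd were lowest after 3 h and nearer the control after 6 h. They were named as the highest of their lists in this comparison, which favours that order. The median log2 ratio of all genes to the control was also lower after 3 h (-0.27) than after 6 h (-0.12).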

How the data were processed

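Polyadenylated RNA of E14 cells was measured in 3 libraries, 1 per condition, with 10x Chromium Single Cell 3' v3 chemistry, per the labels. What was deposited are UMI counts, raw and unfiltered for cells, made with Cell Ranger 7.1.0 on mm10, per the submitters' processing notes. Annotation, intron setting and strand use are not given in the sources used here.

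In each library the 99th percentile of the top 3000 barcodes, divided by 10, set the UMI minimum of a cell (11034, 2961 and 2107 UMIs); cells also needed 500 genes and no more than 20% of UMIs from mitochondria. Doublets were kept. UMIs were summed over cells and scaled to CPM. Log2 ratios of CPM + 1 served the rule of size. Ratios of single genes are without pseudocount where an interval is given, from exact conditional binomial intervals; CPM have exact Poisson and shares exact Clopper-Pearson intervals, at 95%. The interval of a count of 0 reaches up to 0.0352, 0.123 and 0.149 CPM under DMSO, after 3 h and after 6 h. Thinning drew UMIs without replacement.

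The 10 genes, the pathway lists and the markers were chosen with earlier results of these data known. Named are all 10 genes, list genes past 2-fold with a mean of at least 10 CPM, the extremes of each list (a few list genes are not reported here), and the 5 genes most like the mean of the 10. Gene models, overlaps and sites of 3' untranslated regions came from GENCODE M21 (GRCm38) and promoters from RefSeq (GRCm38.p6). Cell calling, scaling, free RNA, doublets, pseudocount and filter were varied; edgeR 4.0.16 in R 4.3.3 gave TMM factors only. The ratio and interval code was tested on simulated data. The work was done in Python 3.11.15 with scipy 1.17.1 for intervals, numpy 2.4.6, matplotlib 3.10.9 and pandas 2.3.3.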

Additional observations from a re-analysis of the deposited data

Results flagged for a closer look

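Of the 10 genes, Fgfr1, the receptor gene, stood on opposite sides of the control at the 2 times by more than counting error. Its log2 ratio of CPM + 1 was -0.14 after 3 h and 0.33 after 6 h. With 1 library per condition the difference between the times was not tested. The sign after 3 h depends on the scaling, with 0.05 under TMM factors and 0.09 under median-of-ratios factors. TMM factors moved the median gene by 0.19 after 3 h, more than the size of the 3 h ratio.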

How the results depend on the processing

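Depth limited Dusp4 (38 to 278 UMIs), and Spry4 and Dusp6 after 6 h (66 and 75 UMIs). With 1 library per condition no replicate could be left out. No paired analysis was possible because each condition is 1 library with no replicate number in the labels. The median log2 ratio of the 10 genes after 3 h was -0.85 with TMM factors, -0.80 with median-of-ratios factors, -2.72 as UMIs per cell, -0.91 with equal weight for each cell and -0.92 with 10% free RNA subtracted. At 6 h it was -2.98 as UMIs per cell. For 6 h against 3 h its sign turned, to -0.029 with TMM, -0.033 with median-of-ratios factors and -0.26 as UMIs per cell.

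Of those of the 10 genes that passed each filter, the number at least 2-fold lower after 3 h and after 6 h was 7 and 7 of 7 as UMIs per cell (98.7% and 99.2% of all genes), 1 and 0 of 3 with a mean of at least 50 CPM (3.06% and 2.42%), and 5 and 3 of 10 with no filter (3.35% and 2.77%). The shares with no filter are held low, since a gene below 1 CPM in the control cannot be called lower. Of the listed pathway genes, the number lower after 3 h was 1 with TMM, median-of-ratios factors, equal weight, free RNA subtracted or the 50 CPM filter, 35 as UMIs per cell and 5 with no filter. The number higher after 3 h was 0 as UMIs per cell or with the 50 CPM filter and 2 with no filter. At 6 h the number higher was 0 with TMM, as UMIs per cell or with the cell minimum doubled, and 3 with no filter. The number lower after 6 h was 2 with TMM, with the minimum doubled, with a mitochondrial limit of 10% or with a pseudocount of 0.1 CPM, 36 as UMIs per cell and 6 with no filter. For 6 h against 3 h, 2 were lower with TMM, median-of-ratios factors or as UMIs per cell, and with no filter 1 was lower and 2 were higher. The cause of these moves was not tested.

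The share of cells with any of the 10 genes was 99.95%, 95.1% and 92.9% unthinned and 63.4%, 49.3% and 57.9% at 2000 UMIs under DMSO, after 3 h and after 6 h. The Etv5 share after 3 h was 52.1% with equal weight for each cell, and the median r in the control was 0.019 at 10000 UMIs. Between the shallowest and deepest 25% of cells the median difference was -0.058 under DMSO, 0.274 after 3 h and 0.022 after 6 h, the last with its sign turned. After 3 h the shallowest cells were higher beyond counting error for Fgfr1 (42.6 against 28.9 CPM) and Spred1 (49.4 against 32.2 CPM). The same held for Spred2 (43.2 against 29.8 CPM) and Etv5 (124 against 101 CPM), and not for the other genes. Fgfr1 in the shallowest 3 h cells was thus above its control level of 33.7 CPM.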

Other observations

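Several listed pathway genes under the filter of 10 CPM, chosen after their values were seen, also stood far from the control. Myc, a transcription factor gene that responds to ERK and LIF, stood at 16.2 CPM under DMSO, 3.41 CPM after 3 h and 2.71 CPM after 6 h. Egr1, an immediate-early gene, stood at 11.5, 5.59 and 1.34 CPM, and the phosphatase gene Dusp1 at 9.69, 2.68 and 2.15 CPM. Ier3, another immediate-early gene, stood at 5.22, 1.00 and 1.74 CPM. Of these genes, Egr1 and Ier3 differed between 3 h and 6 h beyond counting error, in opposite directions. Egr1 was lower after 6 h, and Ier3 was higher (log2 ratio 0.80, interval 0.09 to 1.52). For Myc and Dusp1 a difference between these times was not detectable at this depth. Other genes of the same lists and under the same filter stood above the control at 1 or both of the times. Fosl1, from the ERK-responsive list, stood at 0.686, 0.435 and 2.39 CPM, highest after 6 h. Dusp5, from the feedback list, stood at 3.29, 5.75 and 3.77 CPM, highest after 3 h. Klb, the co-receptor gene for endocrine FGFs, stood at 0.515, 4.11 and 8.31 CPM. It was the listed gene with the highest log2 ratio of CPM + 1 at both times, 1.76 and 2.62.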
